A study of Mus musculus with 9 samples.

Results

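Of 20 measured genes that act in mitosis or its control, 12 were lower and 1, Cdc20, was higher in mouse forestomach than in the gastric corpus, while 7 did not pass the test. Cdc20 was read from a probe set that can match other transcripts. The second probe set of Cdc20 gave a log2 difference of 0.13 and was not called. Of all 39 measured genes of the cell cycle and mitosis, 16 were lower and 5 were higher in forestomach than in corpus, where 29.9% and 30% of all genes tested were lower and higher. At the squamocolumnar junction 18 were higher and 1 was lower than in forestomach (21.5% and 23.1% of all genes), and 1 was higher and 2 were lower than in corpus (13.2% and 11.8%). Of the 5 genes called higher in forestomach than in corpus, no direction is given below for Tyms and Ccnd1. Rrm2, like Cdc20, rests on a probe set that can match other transcripts. Among the genes called lower there, Mcm2 and Prc1 rest on such probe sets as well. Without probe sets of that kind, both lost their calls (-0.38 and -0.46, adjusted p = 0.105 and 0.0645 in limma). Averaging over probe sets ended the calls of Ccnd1, Ccnd2, Rrm2 and Cdc20. The helicase gene Blm gave a high signal in all corpus arrays, an intermediate one at the junction and a low one in forestomach.

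The genes were 40 named genes of DNA replication, G1 progression, mitosis and cytokinesis, and every probe set annotated to exactly 1 of their symbols was taken. That gave 94 probe sets, of 34945 with a single symbol, and they covered 39 of the 40 genes; Ccnb1, a B-type cyclin gene, was not measured by such a probe set. All 39 passed the filter on low signal, among 13637 genes tested. A signal above the 40th percentile of its array (29.0 to 36.5) on at least 3 arrays was required, and 75 of the 94 probe sets met this. Each gene was read from its brightest kept probe set. Of the 39 genes, 29 lay above that level on all 9 arrays, 7 on 6 to 8 arrays, and Bub1, Kif11 and Tyms on 3 to 5. Bub1 lay below it on all corpus and forestomach arrays, and Tyms on all corpus arrays, so both passed through the zone where they were higher, and without them the counts were 16 lower and 4 higher in forestomach than in corpus and, without Bub1, 17 higher in junction than in forestomach.

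The samples were adjacent stripes, 600 to 800 µm wide, of forestomach, squamocolumnar junction and corpus from 9 healthy, untreated female C57Bl/6 mice aged 3 months. The forestomach is the non-glandular, squamous part of the mouse stomach, the corpus is glandular, and the junction lies between them at the limiting ridge. Tissue of 3 mice was pooled into 1 series, and each of the 3 series gave 1 array per zone, so that the zones of a series come from the same mice and each group has n = 3 pools. Total RNA was read on Affymetrix arrays as MAS5 signals, with a median of 47.9 to 57.1 per array.

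Cell division is driven by cyclins and the kinases they switch on. G1 cyclins start the cycle, the MCM helicase and its loaders open DNA for copying, and mitotic cyclins, Aurora and Polo kinases, kinesins and the anaphase promoting complex then divide the chromosomes. In the corpus, dividing cells lie mainly in the isthmus of the gland; in the forestomach they lie in the basal layer of a stratified epithelium whose upper layers no longer divide. In bulk tissue, fewer dividing cells and less RNA per dividing cell cannot be told apart.

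Many of these genes are known to be controlled through short promoter elements. The CCAAT box is bound by NF-Y; the cell cycle genes homology region, with the letters TTTGAA, is bound by complexes that hold mitotic genes silent until late in the cycle; E2F sites are typical of replication genes. The promoters of 6 genes whose signals are described in the following paragraphs, and that of Blm, are shown. Each runs from 130 bases before the RefSeq start to the last base before it (build GRCm38.p6, RefSeq). Capitals mark the CCAAT letters, the letters TTTGAA or one of the E2F words TTTCCCGC, TTTCGCGC, TTTGCCGC and TTTGGCGC, read on either strand.
Cdk1: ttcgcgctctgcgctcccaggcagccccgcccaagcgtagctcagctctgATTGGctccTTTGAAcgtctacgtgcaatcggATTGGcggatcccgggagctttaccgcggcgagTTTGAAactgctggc
Ube2c: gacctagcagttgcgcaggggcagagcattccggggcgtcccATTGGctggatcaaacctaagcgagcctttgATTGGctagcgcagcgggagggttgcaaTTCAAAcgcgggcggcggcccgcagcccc
Ccnb2: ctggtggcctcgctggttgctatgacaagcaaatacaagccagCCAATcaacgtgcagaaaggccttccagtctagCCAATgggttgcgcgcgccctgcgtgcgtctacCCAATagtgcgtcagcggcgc
Mki67: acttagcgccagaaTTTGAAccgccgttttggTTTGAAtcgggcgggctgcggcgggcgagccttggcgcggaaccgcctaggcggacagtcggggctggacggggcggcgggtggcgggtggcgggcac
Cenpa: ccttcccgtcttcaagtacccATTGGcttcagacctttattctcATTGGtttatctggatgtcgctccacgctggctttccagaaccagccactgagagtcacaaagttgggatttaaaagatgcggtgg
Mcm6: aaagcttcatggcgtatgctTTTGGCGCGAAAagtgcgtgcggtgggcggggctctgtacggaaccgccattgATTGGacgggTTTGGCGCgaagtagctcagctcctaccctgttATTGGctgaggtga
Blm: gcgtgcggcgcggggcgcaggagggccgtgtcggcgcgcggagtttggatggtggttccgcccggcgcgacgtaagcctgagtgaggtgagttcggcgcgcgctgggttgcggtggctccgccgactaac

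These windows lie at chr10:69352913-69353042 (minus strand) for Cdk1, chr2:164769799-164769928 (plus) for Ube2c, chr9:70421555-70421684 (minus) for Ccnb2 and chr7:135716380-135716509 (minus) for Mki67. Those of Cenpa, Mcm6 and Blm lie at chr5:30666756-30666885 (plus), chr1:128359706-128359835 (minus) and chr7:80534999-80535128 (minus). In Cdk1 both elements alternate, Ccnb2 has 3 evenly spaced CCAAT boxes, and Mcm6 has 3 E2F matches, of which the first pair overlap on opposite strands. The Blm window holds none of the letters searched, but CCAAT matches of Blm lie upstream of it, at -186 and -161 from the start. Matches outside the windows are not marked, such as CCAAT of Mki67 at -188, -166 and -141 and an E2F match of Cdk1 from -131.

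Over the 300 bases from 250 before to 50 after the start, promoters were found for 31 of the 40 genes (not for Foxm1, Kif20a, Aurkb, Ccna2, Ccnd1, Tpx2, Mcm4, Ccnd2 and Ccne2). CCAAT occurred in 26 of the 31 (83.9%), against 41.1% of all 27025 promoters. TTTGAA occurred in 15 (48.4%) against 20.2%, always together with CCAAT, and both together occurred in 8.97% of all promoters. An E2F match occurred in 6 (19.4%) against 2.60%. Among the 10935 promoters of genes tested here, the shares were 42.2% for CCAAT, 14.4% for TTTGAA, 6.9% for both and 4.36% for E2F. The matches differed by role: 4 of 5 promoters of mitotic cyclins and kinases, and 3 of 4 of the spindle checkpoint and anaphase promoting complex group, held TTTGAA, while an E2F match stood in 5 of 9 replication genes and in Cdk1. Of the genes lower in forestomach than in corpus, 10 of 13 with a promoter held TTTGAA, and of the other measured genes 5 of 17. A match of letters is a description of the promoter and not evidence that a factor binds there.

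**Figure D1:**
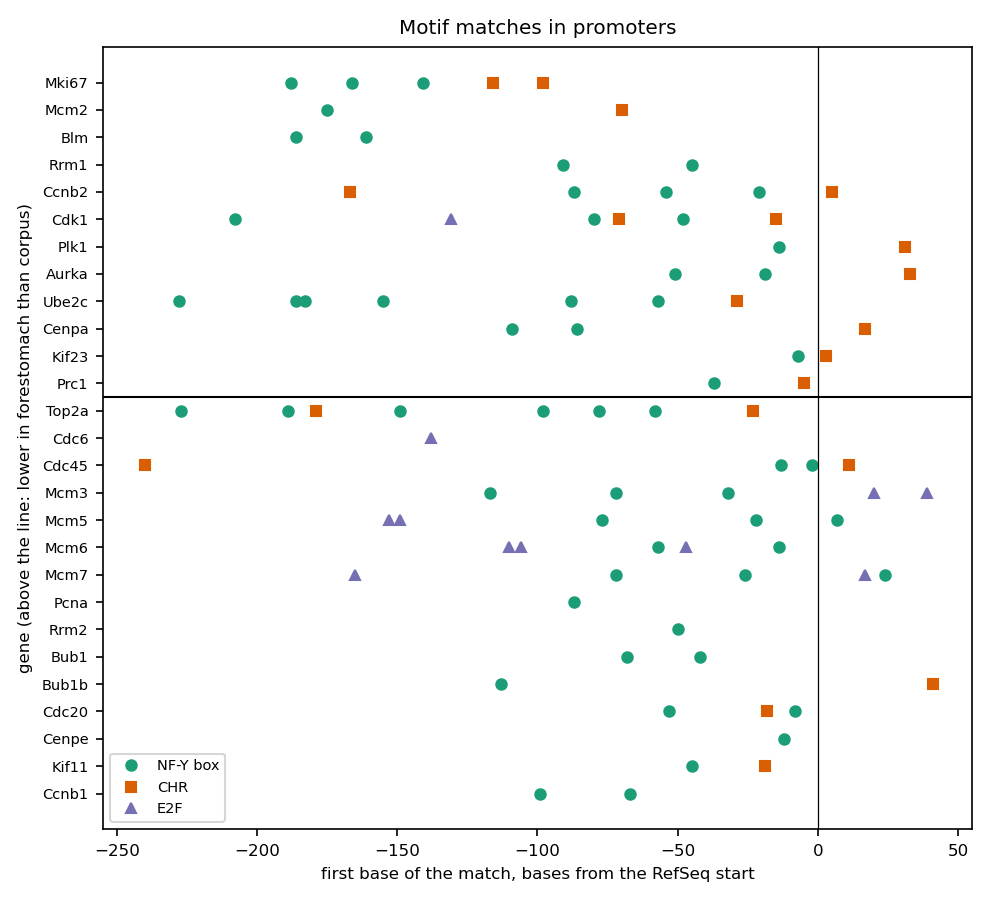
Positions of matches to CCAAT (NF-Y box, circles), to the letters TTTGAA (CHR, squares) and E2F letters (triangles) in 27 promoters with at least 1 match; the x axis gives bases from the RefSeq start and each line on the y axis is a gene. Genes above the line were lower in forestomach than in corpus; squares are present for 10 of those genes, and E2F matches lie mostly in the Mcm genes below it.

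The arrays were first compared with their labels, because the forestomach pools were not alike. The summed signal of 14 gastric gland markers was 1544.2 on forestomach array 1 but 25392.2 on array 2 and 32722.4 on array 3, against 112486 to 161681 in corpus and 119110 to 139318 at the junction (Muc6 was not measured). The junction carried both epithelia, with summed squamous suprabasal markers of 66984.6 to 88921.9, against 99968.6 to 104129 in forestomach and 1815.2 to 3809.5 in corpus. Smooth muscle and fibroblast markers (9 of 9 measured) summed to 61928.9 to 69915.9 in forestomach, 27492.6 to 36661.3 in corpus and 35166.6 to 38482.4 at the junction, and leukocyte markers (7 of 12) to 6224.2 to 8476.9, 3786.9 to 4265.6 and 6984.1 to 7444.4. Of the muscle and fibroblast markers, 8 of 9 were called higher in forestomach than in corpus, against 30% of all genes. In forestomach, corpus and junction, squamous basal layer markers summed to 16506.4 to 19428.1, 3970.7 to 4242.2 and 16568.6 to 22283.6. Isthmus and stem markers, with Mcm2 among them, summed to 6934.1 to 7518.5, 4627.3 to 5007.9 and 6024.9 to 6755.6. Of these 10, 2 were called higher and 5 lower in forestomach than in corpus (30% and 29.9% of all genes). Fat cell markers (4 of 5) summed to 2594.4 to 4968.4, 2370.9 to 2923.4 and 1779.6 to 1897. The Gapdh 3′ to 5′ signal ratio, a sign of RNA quality, was 0.846 ± 0.0713 (SD, n = 3) in forestomach, 0.723 ± 0.0286 in corpus and 0.759 ± 0.00434 at the junction. The same ratio for actin was 1.65 ± 0.0802 in forestomach, 1.65 ± 0.0794 in corpus and 1.52 ± 0.0377 at the junction, so the forestomach and corpus means differed for Gapdh and not beyond their spread for actin. The part of these differences in the results on cell cycle genes was not tested.

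On the scale of log2 differences from each gene's mean over the 9 arrays, the median of the 39 genes was 0.05, 0.17 and 0.10 on corpus arrays 1, 2 and 3, and 0.16, 0.48 and 0.08 on the junction arrays. On forestomach arrays 1, 2 and 3 it was -0.64, 0.00 and -0.44. The same median over all 13637 genes lay between -0.00 and 0.03 on every array. Forestomach array 2 was therefore closest to the other zones: among the 3 forestomach arrays it was the highest for 34 of the 39 genes, and array 1 was the lowest for 27. Junction array 2 was the highest junction array for 29, and corpus array 2 the highest corpus array for 21, so the pool of series 2 was the highest in each zone for most of these genes. Forestomach array 1 had the lowest gland marker signal and the lowest median of cell cycle genes. Array 3 had the highest gland marker signal of the forestomach arrays, and its median lay below that of array 2. A link between gland markers and cell cycle genes was not tested.

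**Figure D2:**
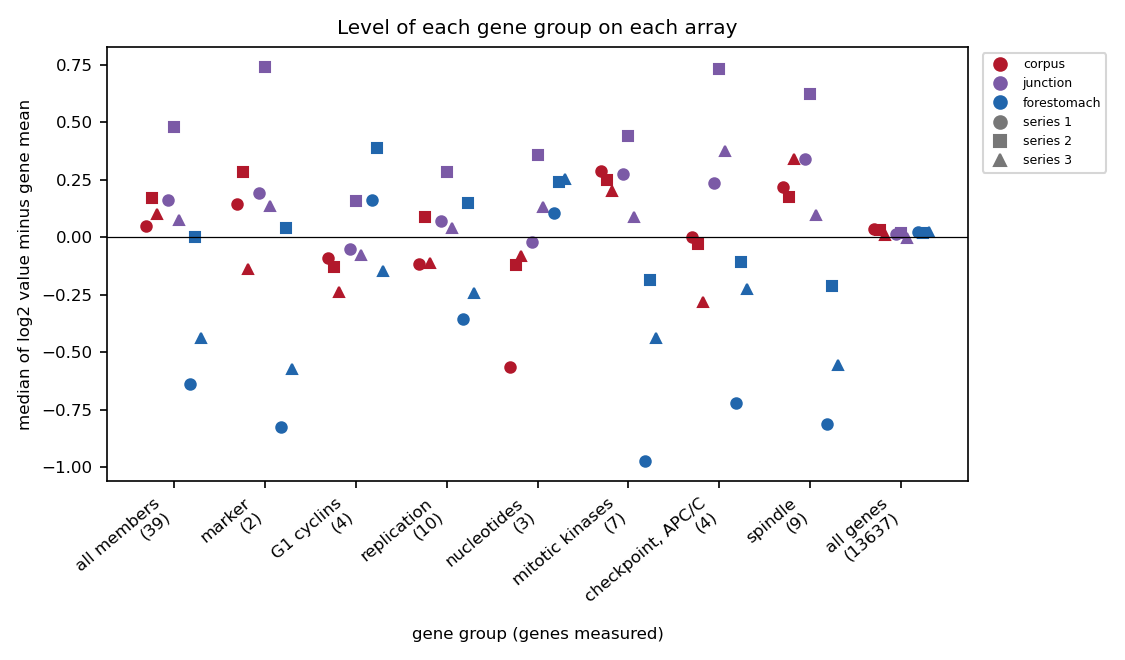
Median log2 value minus the gene's mean over 9 arrays (y axis) for each group of genes (x axis, with the number measured), 1 point per array; colour gives the zone and shape the series. On forestomach array 1 the points lie at -0.97 for mitotic kinases, -0.82 for the marker group of 2 genes and -0.81 for spindle genes, while all genes together lie near 0.

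The first comparison, forestomach against corpus, addresses how the squamous and the glandular stomach differ. In forestomach 16 of the 39 genes (41.0%) were lower, 12 of them mitotic and the others Mki67, Blm, Mcm2 and Rrm1, against a background of 29.9% of all genes tested, and 5 (12.8%) were higher against 30%. The calls are from limma with Benjamini-Hochberg adjustment over all genes at a threshold of 0.05, and fold changes are on the log2(signal + 9.8) scale. The median difference over the 39 genes was -0.52, and -0.01 over all genes. All 3 forestomach arrays lay below all corpus arrays for 17 genes (background 33.2%) and above them for 6 (33.2%).

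Of the mitotic cyclins, kinases and their transcription factor, 6 of 7 were lower, against 29.9% of all genes, with a median of -0.92. Aurkb, the kinase of the chromosomal passenger complex, was not called. Cdk1, the kinase that drives entry into mitosis, gave signals of 207.5, 154.9 and 162.4 in corpus series 1, 2 and 3, of 153.1, 165.3 and 165.9 at the junction, and of 72.4, 109.4 and 79.8 in forestomach. Every forestomach array lay below every corpus and junction array. Cdk1 fell by 0.94 ± 0.16 on the log2 scale (SE; adjusted p = 9.44e-04). Ccnb2, its B-type cyclin partner, gave 133.6, 131.5 and 134.4 in corpus and 35.9, 92.5 and 77.1 in forestomach, a drop of 0.95 ± 0.27 (adjusted p = 0.0134). The corpus pools of Ccnb2 were nearly equal, and the spread lay in forestomach.

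Foxm1, the transcription factor that drives many mitotic genes, gave 200.4, 260.3 and 191.5 in corpus, 116.5, 158.5 and 75.1 at the junction and 27.8, 75.7 and 103.2 in forestomach. It fell by 1.66 ± 0.40 in forestomach (adjusted p = 0.00626), and the groups did not overlap. Its other kept probe set gave -1.17 and was not called (adjusted p = 0.082 in limma over all probe sets). Foxm1 was lowest on forestomach array 1 and highest on array 3, while array 2 was the highest for 34 of the 39 genes. A link to the gland markers was not tested. Ccna2, the cyclin of S phase and G2, fell by 0.72, Aurka, a centrosome kinase, by 0.71 and Plk1, the Polo kinase of mitotic entry, by 0.63 (adjusted p = 0.0417, 0.0157 and 0.0433).

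Among genes of the spindle, centromere and cytokinesis, 5 of 9 were lower and none was called higher (29.9% and 30% of all genes). Cenpa, the histone variant that marks centromeres, gave 89.7, 88.8 and 114.1 in corpus, 107.5, 127.7 and 109.3 at the junction and 32.4, 52.2 and 40.6 in forestomach. The forestomach arrays lay well below all others, and Cenpa fell by 1.07 ± 0.16 (adjusted p = 4.30e-04). Kif23, a kinesin of the cytokinetic midzone, gave 92.5, 108.6 and 127.0 in corpus and 39.8, 45.6 and 33.0 in forestomach, a drop of 1.27 ± 0.20 (adjusted p = 6.15e-04). Birc5, the survivin gene of the passenger complex, fell by 1.13 ± 0.25 (adjusted p = 0.00428), from 112.9, 130.1 and 123.8 to 34.2, 75.2 and 49.1. Kif23 was low on all forestomach arrays alike, whereas Birc5 was higher on array 2. Prc1, which bundles midzone microtubules, fell by 0.72 and Tpx2, an activator of Aurka, by 0.65 (adjusted p = 0.0169 and 0.0276). Cenpe, Kif11, Kif20a and Nusap1 were not called, with differences of 0.10, -0.74, -1.02 and -0.52. Both other kept probe sets of Kif11 were called lower (-0.72 and -0.90, adjusted p = 0.0170 and 0.00245 in limma over all probe sets), while the second probe set of Prc1 gave -0.46 and was not called.

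The checkpoint and anaphase promoting complex group split. Ube2c, the ubiquitin-conjugating enzyme of that complex, gave 269.7, 273.6 and 223.8 in corpus, 239.8, 309.4 and 271.4 at the junction and 38.6, 126.4 and 90.3 in forestomach. All forestomach arrays were below all others, and Ube2c fell by 1.60 ± 0.32 (adjusted p = 0.00259). Cdc20, an activator of the same complex, was instead higher by 0.70 ± 0.21 (adjusted p = 0.0186), with 156.0, 152.3 and 146.3 in corpus and 187.3, 355.3 and 238.5 in forestomach. That value came from a probe set of the type that can match other transcripts; its second probe set gave 0.13 (adjusted p = 0.699 in the fit over all probe sets). The checkpoint genes Bub1 and Bub1b gave -0.44 and -0.05 and were not called. Of the other kept probe sets of Bub1b, 1 was called lower (-1.14, adjusted p = 0.00697 in limma over all probe sets) and the other gave -0.05, so the gene's probe sets differ.

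Mki67, the Ki-67 gene used to mark dividing cells, gave 212.4, 246.4 and 210.3 in corpus, 250.7, 328.9 and 203.7 at the junction and 91.0, 176.2 and 120.1 in forestomach. It fell by 0.79 ± 0.24 in forestomach (adjusted p = 0.0182), and the groups did not overlap. Its call was lost without forestomach array 1 (a difference of -0.58, adjusted p = 0.0595), without array 3 (-0.76, adjusted p = 0.0501) and without corpus array 2 (-0.72, adjusted p = 0.0576). Top2a, the topoisomerase that untangles sister chromatids, gave -0.31 and was not called.

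Of 10 replication genes, only Blm and Mcm2, a subunit of the replicative helicase, were called lower and none higher. The share lower was 20%, against 29.9% of all genes, and the median of the group was -0.10. The second probe set of Mcm2 gave -0.38 and was not called. Mcm6, another subunit, gave 409.9, 493.1 and 420.2 in corpus and 335.9, 567.2 and 385.5 in forestomach, groups that overlapped and differed by -0.07 ± 0.20 (adjusted p = 0.791). Mcm4, Mcm5 and Mcm7 gave 0.24, 0.22 and 0.17, Mcm3 gave -0.62, and Pcna, the sliding clamp of the polymerase, gave -0.13; none of these was called. Among genes of nucleotide supply, Rrm1, the large subunit of ribonucleotide reductase, fell by 0.47 (adjusted p = 0.0452). The second probe set of Rrm1 gave -0.40 and was not called. Rrm2, the small subunit of that enzyme, was higher by 0.64 (adjusted p = 0.0117). The value of Rrm2 also rests on a probe set that can match other transcripts, and its other kept probe sets gave -0.18 and 0.14, both uncalled. Tyms, thymidylate synthase, was dim, with a mean signal of 19.8 ± 6.12 in corpus, below the filter level on all 3 arrays, and 34.8 ± 4.55 in forestomach (SD, n = 3). Its difference of 0.61 (adjusted p = 0.0366) is counted among the 5, but it became 0.00 (adjusted p = 0.992) with signals under the filter level raised to that level, so no direction is given for Tyms.

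Ccnd2, a D-type cyclin that starts the cycle in response to growth signals, ran the other way. It gave 2361.9, 2466.9 and 2305.9 in corpus, 2523.0, 2366.2 and 2421.0 at the junction and 3098.4, 3646.3 and 3192.7 in forestomach. Every forestomach array lay above all 6 others, and Ccnd2 was higher by 0.47 ± 0.09 than in corpus (adjusted p = 0.00201). Of its 7 kept probe sets, 4 were called higher and the other 3 gave uncalled values of -0.38, -0.26 and -0.09. Ccnd1 was higher by 0.42 ± 0.14 (adjusted p = 0.0245) from 674.6, 813.1 and 694.2 to 900.7, 1192.2 and 861.3, but a dimmer probe set of Ccnd1 was called the other way (-0.50, adjusted p = 0.0459 in the fit over all probe sets), so no direction is given for the gene. The cyclin E genes Ccne1 and Ccne2, which act with Cdk2 at the start of S phase, gave 0.28 and -0.23 and were not called.

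**Figure D3:**
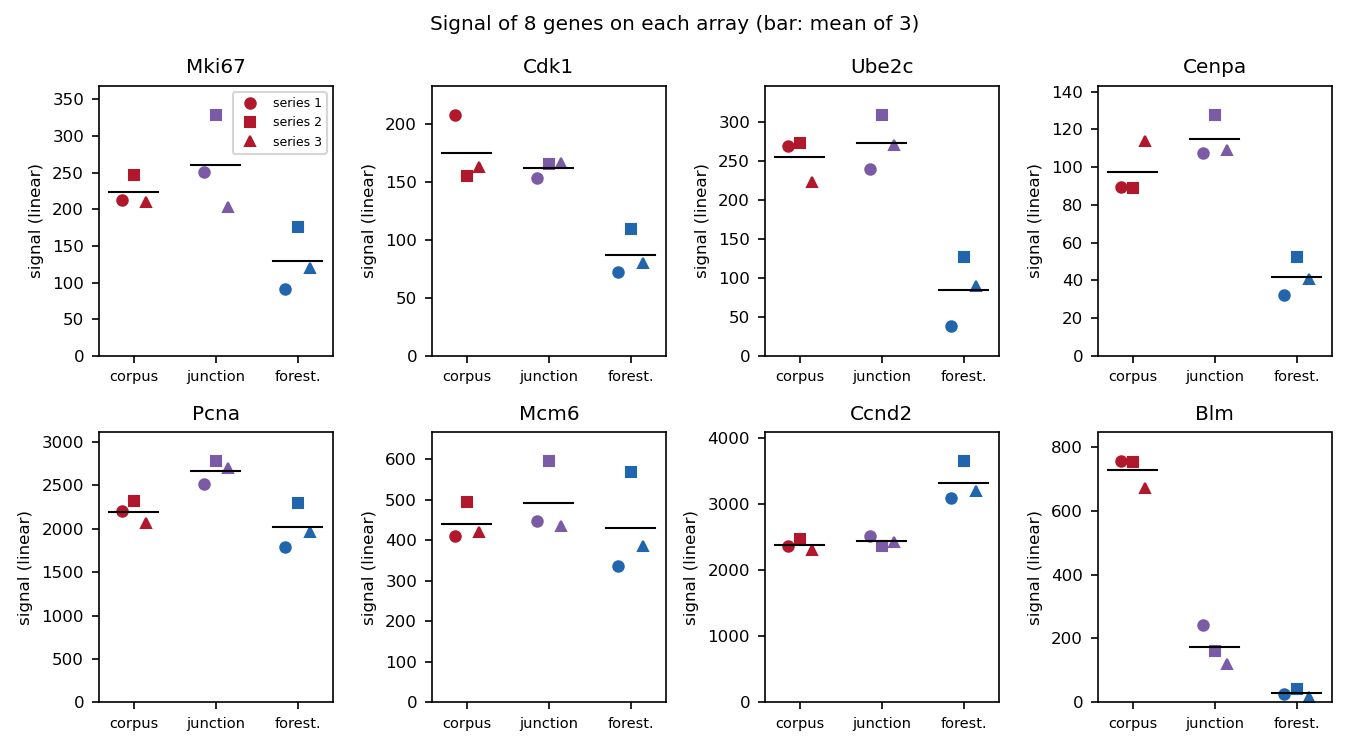
MAS5 signal on a linear scale (y axis) in corpus, junction and forestomach (x axis) for 8 genes, 1 point per array with shape for the series and a bar at the mean of 3 arrays. Cdk1, Ube2c and Cenpa were lowest on every forestomach array, Ccnd2 was highest there, Mcm6 overlapped between zones and Blm stepped down from corpus to forestomach.

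Of 21 calls, those of Cdk1, Ccnb2, Foxm1, Aurka, Ube2c, Cenpa, Kif23, Birc5 and Blm held under every setting not chosen after seeing the data. These settings include each array left out in turn, as far as the gene was still tested (the stricter filter kept 25 of the 39). Of the settings chosen after seeing the data, leaving out series 1 ended the call of Aurka (-0.47, adjusted p = 0.0731). Leaving out series 3 ended that of Ccnb2 (-1.06, adjusted p = 0.0615). Cdk1, Foxm1, Ube2c, Cenpa, Kif23, Birc5 and Blm held under those settings as well. Without forestomach array 1, Mki67, Mcm2, Rrm1, Tyms, Ccna2, Plk1 and Tpx2 lost their calls (adjusted p = 0.0562 to 0.149), and without array 3 the same 7 genes did (0.0501 to 0.127); without array 2, Ccnd1 and Tyms did (0.0619 and 0.0667). Without corpus array 1, Ccnd1, Rrm1, Tyms, Ccna2, Plk1, Tpx2 and Prc1 lost theirs (0.0518 to 0.133), without array 2 Mki67, Mcm2, Rrm1, Tyms, Ccna2 and Plk1 (0.0525 to 0.135), and without array 3 Ccnd1, Mcm2, Rrm1 and Cdc20 (0.0510 to 0.116). Leaving out junction array 1 ended the calls of Ccna2 and Plk1 (0.0575 and 0.0585), and leaving out junction array 2 or 3 that of Rrm1 (0.0532 and 0.0564). The number of genes called lower was 10 without forestomach array 1, 11 without forestomach array 3 or corpus array 2, and 20 without forestomach array 2. With the series as a replicate block, since its zones come from the same mice, Mcm2 lost its call (adjusted p = 0.0677), and Mcm3, Kif20a and Nusap1 were called lower (0.0177, 0.0325 and 0.0402), which gave 18 lower and 5 higher. Within the series the median difference of the 39 genes was -0.69, -0.17 and -0.50, and 24 genes were lower in all 3 series (background 38.1%).

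**Figure D4:**
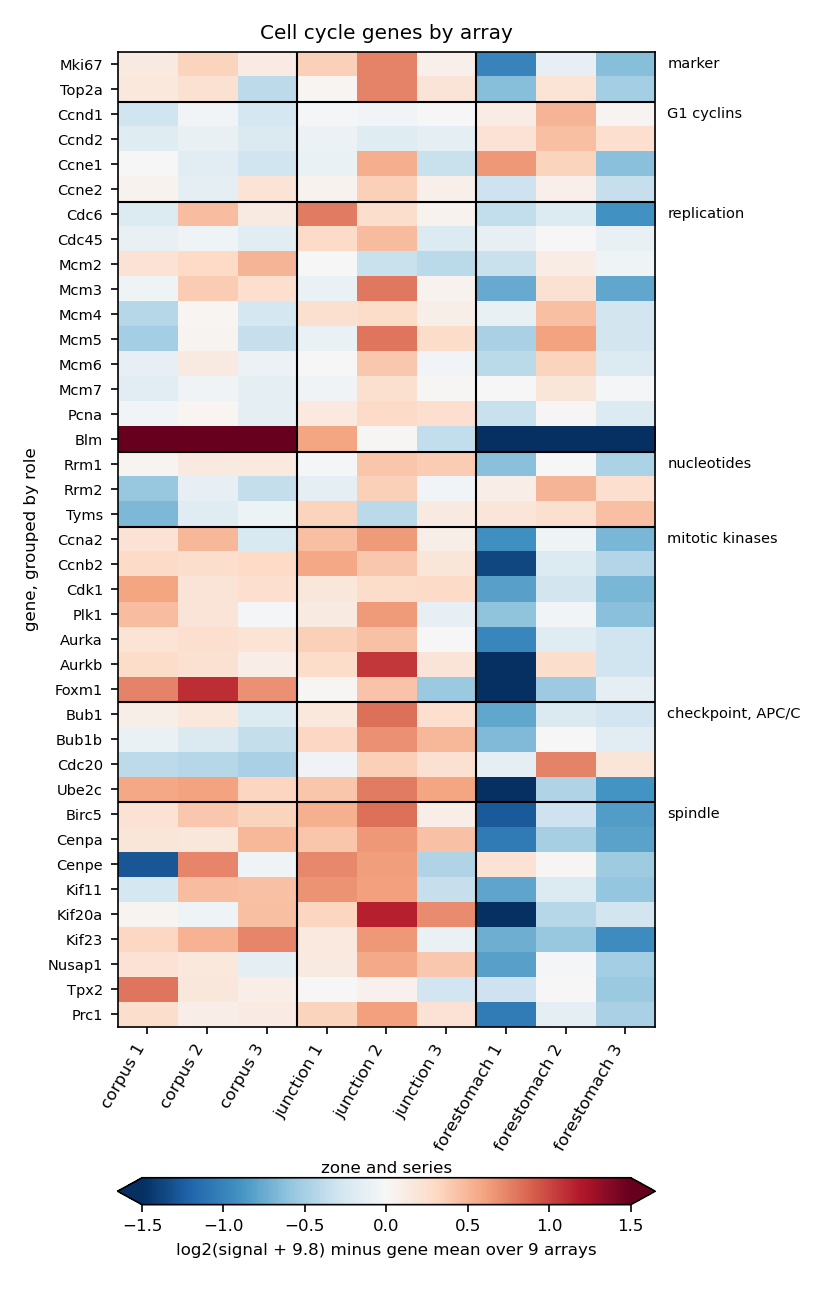
Heat map of log2(signal + 9.8) minus the gene's mean over 9 arrays (colour, cut at -1.5 and 1.5) for 39 genes grouped by role (y axis) on each array (x axis, zone and series). Forestomach columns are blue for most mitotic kinases and spindle genes, most on array 1, and red for Ccnd1 and Ccnd2; junction array 2 is red for most genes.

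The second comparison, junction against forestomach, shows the same boundary from the junction side. It shares the forestomach arrays with the first, so both sets of values rest on the same 3 forestomach pools and are not independent. In junction, 18 of the 39 genes were higher, against 21.5% of all genes, and only Ccnd2 was lower, against 23.1%. The median difference was 0.68 over these genes and -0.04 over all genes. All junction arrays lay above all forestomach arrays for 17 genes (background 26%) and below them for 2 (29.8%).

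Ube2c was higher by 1.70 ± 0.32 (adjusted p = 0.00301), a 3.24-fold difference. Of the checkpoint and anaphase promoting complex genes, 3 of 4 were called higher, against 21.5% of all genes. Bub1b, a checkpoint kinase gene that did not pass between forestomach and corpus, gave 53.4, 72.2 and 62.3 at the junction, 22.4, 41.0 and 35.8 in forestomach and 37.9, 33.9 and 30.1 in corpus. The junction arrays lay above all 6 others. Bub1b was higher by 0.77 ± 0.18 than in forestomach (adjusted p = 0.00749); of its other probe sets 1 was called higher (1.38) and 1 was not (0.50). Its partner Bub1 gave 0.84 ± 0.22 (adjusted p = 0.0124), but it lay above the filter level on the junction arrays only, through which it entered the test. With signals under that level raised to it, Bub1 gave 0.45 (adjusted p = 0.0411). Cdc20 gave -0.08 and was not called.

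Of spindle and cytokinesis genes, 6 of 9 were higher, against 21.5% of all genes. Kif20a, a kinesin of the central spindle, gave 51.0, 99.9 and 70.2 at the junction and 3.1, 26.4 and 30.6 in forestomach. The groups were apart, but the forestomach signals lay near or below the filter level, and the difference of 1.61 ± 0.42 (adjusted p = 0.0131) became 2.24 with a pseudocount of 1 and 1.02 with signals raised to the filter level. Cenpa and Birc5 were both higher by 1.29 (SE 0.16 and 0.25; adjusted p = 2.76e-04 and 0.00323), Kif23 by 0.98, Prc1 by 0.95 and Nusap1, a microtubule-binding spindle protein, by 0.82. Cenpe, a kinetochore motor, Kif11, the kinesin that separates spindle poles, and Tpx2 gave 0.40, 0.84 and 0.21 and were not called. Both other kept probe sets of Kif11 (0.69 and 0.92, adjusted p = 0.0280 and 0.00340) and of Tpx2 (0.54 and 0.88, adjusted p = 0.0320 and 0.0183) were called higher in limma over all probe sets.

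Among mitotic cyclins and kinases, 4 of 7 were higher, against 21.5% of all genes. These were Ccnb2 by 1.05 ± 0.27, Ccna2 by 0.95 ± 0.26, Cdk1 by 0.84 ± 0.16 and Aurka by 0.76 ± 0.20. In that order, the adjusted p in limma was 0.0115, 0.0177, 0.00287 and 0.0160. Foxm1 gave 0.77 ± 0.40 and was not called (adjusted p = 0.148); its junction arrays (75.1 to 158.5) overlapped the forestomach arrays (27.8 to 103.2). Plk1 gave 0.64 (adjusted p = 0.0526) and Aurkb 1.22 (adjusted p = 0.0915). Mki67 was 1.98-fold higher, by 0.98 ± 0.24 (adjusted p = 0.00922).

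In the replication group, Blm, Cdc6 and Pcna were called higher, 3 of 10 (30%), against 21.5% of all genes. Cdc6, a loader of the helicase, was higher by 0.86 ± 0.26 (adjusted p = 0.0239). Pcna gave 2510.3, 2774.9 and 2697.3 at the junction, 1795.0, 2293.2 and 1965.7 in forestomach and 2206.1, 2321.0 and 2060.7 in corpus. Every junction array was above all 6 others, with a difference from forestomach of 0.40 ± 0.11 (adjusted p = 0.0166). The 6 Mcm genes were not called, at -0.16 to 0.68. Another probe set was called higher for Mcm2, Mcm3 and Mcm7 (0.73, 0.68 and 0.36, adjusted p = 0.0132, 0.0246 and 0.0337 in limma over all probe sets), as was 1 for Rrm2 (0.55). Rrm1 was higher by 0.62 (adjusted p = 0.0196). Ccnd2 was lower at the junction, where it fell by 0.44 ± 0.09 (adjusted p = 0.00464), and Ccnd1 gave -0.25, with a dimmer probe set called the other way (0.78).

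Of the 18 genes, Mki67, Blm, Ccnb2, Cdk1, Bub1, Bub1b, Ube2c, Birc5, Cenpa, Kif20a, Kif23, Nusap1 and Prc1 kept their calls under every setting not chosen after seeing the data. Bub1 did so with a forestomach signal below the filter level on every array. Blm, Ccnb2, Ube2c, Birc5, Cenpa, Kif23 and Prc1 kept theirs under all settings. Without forestomach array 1, Pcna, Rrm1 and Ccna2 lost their calls (adjusted p = 0.0599 to 0.0678), and without array 3 Cdc6, Rrm1 and Ccna2 (0.0563 to 0.0784). Without junction array 1, Cdc6, Ccna2 and Aurka lost theirs (0.0515 to 0.0802), without array 2 Pcna, Rrm1, Ccna2 and Aurka (0.0534 to 0.0663), and without array 3 Rrm1 (0.0614). With the series as a replicate block, Top2a, Mcm3 and Plk1 were called higher as well (0.0247, 0.0174 and 0.0235), giving 21. The median difference was 0.74, 0.55 and 0.51 within series 1, 2 and 3, and 28 genes were higher in all 3 (background 31.7%).

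**Figure D5:**
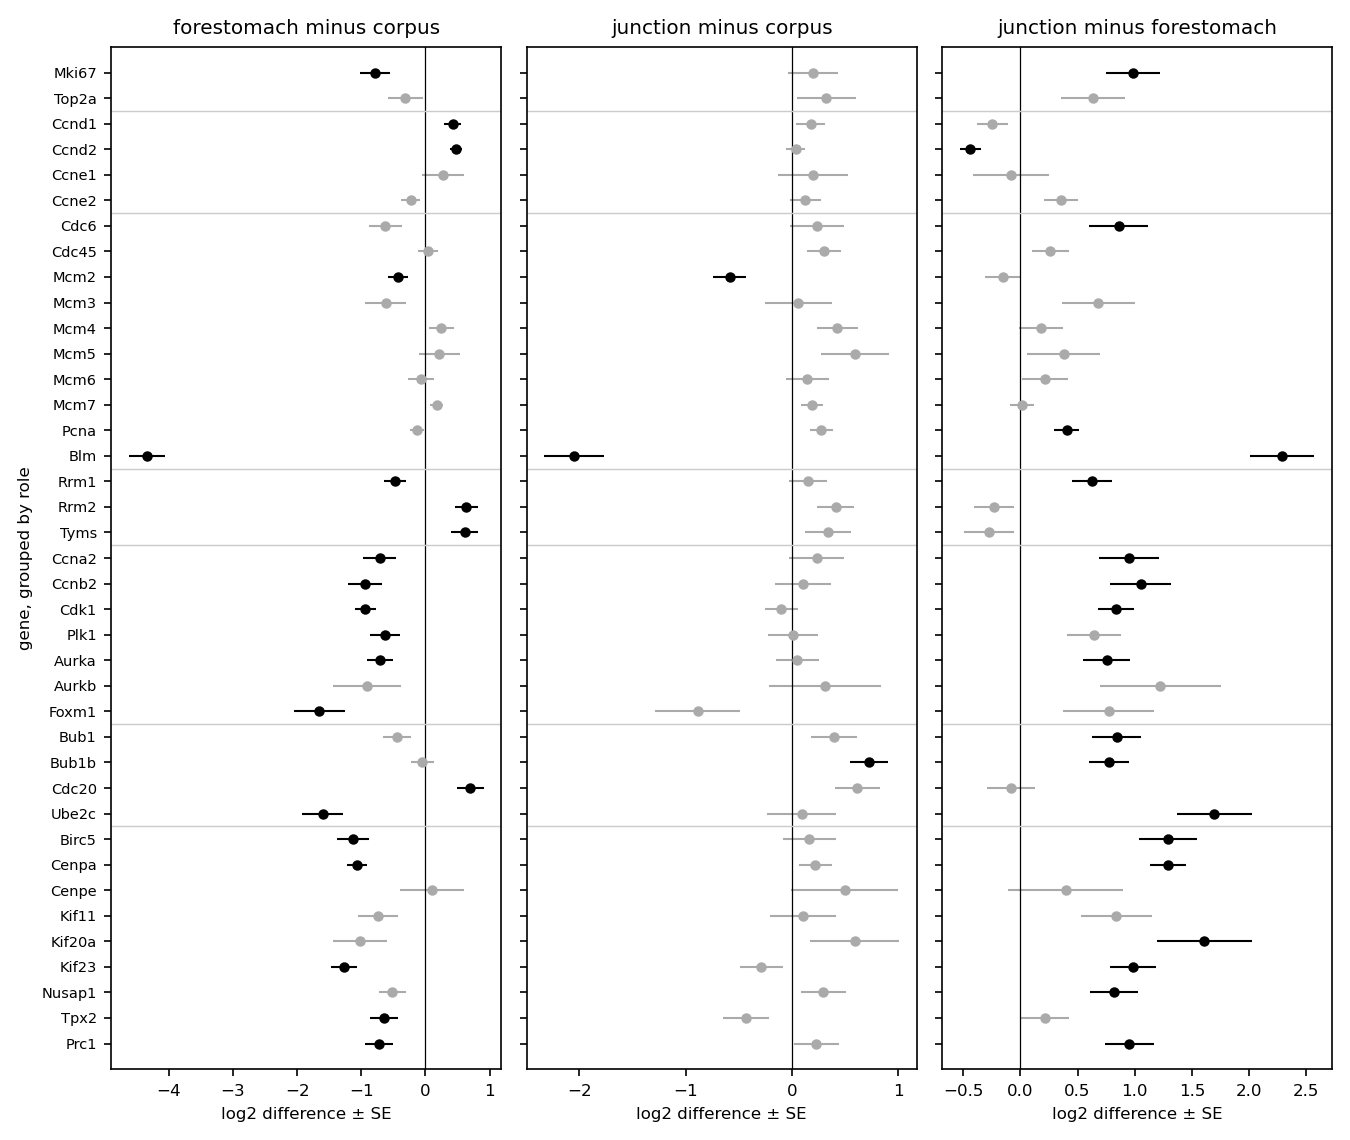
Log2 difference with its standard error (x axis) for 39 genes grouped by role (y axis), in 3 panels for forestomach minus corpus, junction minus corpus and junction minus forestomach; black points passed an adjusted p of 0.05 in limma, grey points did not, and the x axes differ in range. Of the black points, 16 lie left of 0 and 5 right of it in the first panel, 18 right and 1 left in the third, and 3 in all are black in the second.

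The third comparison, junction against corpus, left 36 of the 39 genes uncalled. Bub1b was higher (background 13.2% of all genes), and Blm and Mcm2 were lower (11.8%). The median was 0.20 over the 39 genes and -0.05 over all genes. All junction arrays lay above all corpus arrays for 4 genes (background 20%) and below them for 4 (23.7%). A missed threshold does not show equal levels: Mki67 gave 0.20 ± 0.24, Cdk1 -0.10 ± 0.16, Ube2c 0.09 ± 0.32, Cenpa 0.22 ± 0.16 and Foxm1 -0.89 ± 0.40 (SE).

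Bub1b was higher than in corpus by 0.72 ± 0.18 (adjusted p = 0.0193). Its other 2 kept probe sets gave 0.24 and 0.45, both uncalled, so the call of Bub1b rests on 1 probe set. Bub1b lay above the filter level on 1 of the 3 corpus arrays, and its difference was 0.68 with signals raised to that level. Bub1b lost its call without corpus array 2 or 3, or junction array 2 or 3 (differences of 0.63 to 0.72). So did Mcm2, with adjusted p of 0.0511 to 0.0851 over both genes. Mcm2 fell by 0.59 ± 0.15 (adjusted p = 0.0243), from 485.4, 515.7 and 598.5 in corpus to 414.2, 330.4 and 313.2, but its second probe set gave 0.35, uncalled, so the direction for Mcm2 rests on 1 probe set. With the series as a replicate block, Mcm2 lost its call (adjusted p = 0.0524) and Mcm5, Rrm2 and Cdc20 were called higher (0.0202, 0.0156 and 0.0457), giving 4 higher and 1 lower. Centring the arrays on their medians gave 3 higher and 1 lower, and moved the share of higher among all called genes from 52.8% to 70.7%.

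No gene of the 39 passed a test for being above, or below, both neighbours at the junction (limma, the larger of both p-values, adjusted over all genes); among all genes, 27 were above (0.198%) and 2 below (0.0147%). At an unadjusted p under 0.05, Bub1b and Pcna were above both, and they were also the only genes of the 39 with all junction arrays above the other 6 (background 2.85%). None had all junction arrays below the other 6 (background 3.82%). Both differences from the neighbours were positive for 27 genes and negative for 1, Mcm2, whatever their size. The same share over all genes was not counted, so these signs are not read as a rise at the junction. The second probe set of Mcm2 gave positive differences, 0.35 from corpus and 0.73 from forestomach.

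Blm, a RecQ helicase that resolves recombination and replication intermediates, had the largest differences of the 39 genes. It gave 753.9, 752.4 and 670.5 in corpus, 242.4, 160.4 and 120.5 at the junction and 25.3, 41.9 and 16.7 in forestomach. The zones did not overlap, and all 3 differences were called: forestomach was below corpus by a log2 difference of -4.34 ± 0.28 (adjusted p = 2.49e-06), junction was lower than corpus by 2.05 ± 0.28 (adjusted p = 0.00117) and higher than forestomach by 2.29 ± 0.28 (adjusted p = 2.73e-04). Only 1 of the 3 forestomach arrays lay above the filter level, so the size of the first difference is limited by background: it was -4.74 with a pseudocount of 1, -3.70 with 30.9 and -4.10, or 17.1-fold, with signals raised to the filter level. The order of the zones was not particular to Blm. The means stepped down from corpus over junction to forestomach for 5 of the 39 genes (12.8%), against 32.2% of all genes. Besides Blm these were Cdk1, Foxm1, Kif23 and Tpx2. Blm alone of the 39 had all 3 differences called in that order, against 5.86% of all genes. Of the 91 genes of the other cell cycle lists, 4 did (Cdc25a, Cdkn2b, Gmnn and Wee1). The junction call of Cdc25a against corpus was lost under 15 of 24 alternative settings. The gene was read from 1 probe set. Among the forestomach arrays, array 3 had the lowest Blm signal and the most gland marker signal. A link between them was not tested.

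Partners of Blm were read from a list. Of 8 measured genes of the Blm complex and homologous recombination, 1 was higher and 1 lower in forestomach than in corpus (backgrounds 30% and 29.9%): Recql, a related helicase, was higher by 0.61 and Brca1, a recombination mediator, fell by 0.60. The call of Recql was lost with the mean of its probe sets (0.28, adjusted p = 0.112). The call of Brca1 was lost without corpus array 2 or 3 or forestomach array 1 or 3 (-0.58 to -0.50, adjusted p = 0.0614 to 0.0822). It was also lost with median centring, quantile normalization or a trended robust fit (adjusted p = 0.0727, 0.112 and 0.0680 in limma). The complex members Top3a, Rmi1 and Rmi2 gave -0.47, -0.20 and -0.26 and were not called. None of the 8 was called between junction and corpus, where Blm fell.

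Further genes of the same processes were read from lists; of 43 calls on their genes named here and on those of the Blm list, over the 3 comparisons, 25 were lost under at least 1 setting, 14 of them with 1 array left out. Of 36 measured mitosis genes beyond the 39 (44 listed), 15 (41.7%) were lower and 5 (13.9%) higher in forestomach than in corpus, against 29.9% and 30% of all genes, with a median of -0.47. In junction against forestomach, 15 (41.7%) were higher and 3 (8.33%) lower, against 21.5% and 23.1%. Spc25, a kinetochore subunit, fell by 1.24 in forestomach and was higher by 1.27 at the junction. Cep55, of the abscission site, gave -1.15 and 1.23, and Ect2, the exchange factor of cytokinesis, -1.37 and 1.16, all called. Cdc25a, the phosphatase that activates Cdk kinases, and Wee1, the kinase that inhibits them, fell by 1.68 and 1.37 in forestomach. Anln, which organises the cleavage furrow, and the condensin subunit Smc4 were instead higher, by 1.09 and 0.87.

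Of 23 further replication genes (25 listed), 4 (17.4%) were higher and 5 (21.7%) lower in forestomach than in corpus, both below the shares of 30% and 29.9% over all genes, with a median of 0.03. Gmnn, the geminin gene, whose protein blocks relicensing of origins, fell by 1.34 against corpus, by 0.51 at the junction against corpus, and was 0.83 higher at the junction than in forestomach. Orc2, an origin recognition subunit, was 0.74 higher in forestomach, a call lost with the mean of its probe sets (0.16, adjusted p = 0.12), and Mcm10, a fork factor, fell by 0.99.

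Of 18 E2F, RB and MuvB regulators, 5 (27.8%) were higher and 4 (22.2%) lower in forestomach, near or below the shares of 30% and 29.9% over all genes, with a median of 0.15. E2f8 and Lin9, a repressor-type E2F and a MuvB core subunit, were higher by 0.98 and 1.22; E2f2 and Mybl2, an activator-type E2F and the MuvB partner B-Myb, fell by 1.59 and 0.93. E2f1, another activator, gave 1.07 (adjusted p = 0.0656) against corpus and fell by 1.25 at the junction against forestomach (adjusted p = 0.0493). Cdk4, a kinase of the D-type cyclins, gave 0.28 in forestomach and was higher by 0.44 at the junction against corpus, and its relative Cdk6 gave 0.08 in forestomach and was not called. The call of E2f1 was lost with any array left out except corpus arrays 1 and 3 and junction array 3 (adjusted p = 0.0662 to 0.157), and that of Cdk4 with any left out except corpus array 2, forestomach array 3 and junction array 1 (0.0516 to 0.120). Among 6 measured CDK inhibitors (Cdkn2a did not pass the filter), 3 were higher and 1 lower in forestomach (30% and 29.9% of all genes). Cdkn2b, the p15 inhibitor, fell by 2.59 in forestomach and by 1.07 at the junction against corpus. Cdkn1b, the p27 inhibitor, was higher by 0.46, a call lost without corpus array 3 or forestomach array 1 (0.39 and 0.35), and Cdkn2c, the p18 inhibitor, was higher as well (adjusted p = 1.58e-04). Cdkn1a, the p21 inhibitor, gave -0.06 and was not called.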

How the data were processed

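The authors deposited 1 intensity signal per probe set on a linear scale, made with MAS5 per the submitters' processing notes (version and settings: not given in the sources used here). The trimmed mean (2% off each end) of every array was 200.0. MAS5 subtracts mismatch probes, which leaves dim signals noisy. Of 45101 probe sets, 64 were controls; the platform annotation (2016) gave 1 symbol to 34945, several to 932 and none to 9160, and 34741 matched the GRCm38.p6 gene table by Entrez ID. From the signals, log2(signal + 9.8) was computed, where 9.8 is the median over arrays of their 20th percentile. Probe sets above the 40th percentile of their array on 3 or more arrays were kept (24870 with 1 symbol), and the brightest represented each gene. limma 3.58.1 in R 4.3.3 was fitted to all 9 arrays with 1 mean per zone and no block, and p-values were adjusted by Benjamini-Hochberg over 13637 genes. The fit was tested on simulated data. The number of arrays limits the precision.

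The genes and lists were chosen with earlier results of these data known. Named by rule were up to 12 genes called in each direction with the largest differences per comparison, 12 genes whatever their values (Mki67, Top2a, Cdk1, Pcna, Mcm2, Mcm7, Ccnb1, Ccnd1, Ccnd2, Ccne1, Ccne2 and Blm), up to 4 called genes per other list and comparison, and Cdkn1a, Cdkn1b, E2f1, Cdk4 and Cdk6. The remaining genes of the 39, with Anln, Smc4, Top3a, Rmi1 and Rmi2, were named after their values were seen. Alternatives were other pseudocounts (1 and 30.9), filters, normalizations, probe set rules and models, single arrays left out, and the replicate block; fits without probe sets of the _x_at and _s_at types, per probe set, without each series and with signals under the filter level raised to it were chosen after seeing the data. The pairing comes from the labels, which state that the zones of a series are from the same mice. Deviations from the zone means of arrays of 1 series correlated at 0.0329 on average over all genes (-0.0287 to 0.123, 9 pairs), and those of different series at -0.0165 (18 pairs). Over the 39 genes, the averages were 0.0623 (-0.388 to 0.436) and -0.0335 (-0.468 to 0.393). Calls that changed with the replicate block are given with each comparison. Promoters came from a RefSeq table, 27025 genes, both strands searched, overlapping matches counted.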

Additional observations from a re-analysis of the deposited data

How the results depend on the processing

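Of 43 calls on single genes over the 3 comparisons, 23 held under every alternative other than those chosen after seeing the data, and 15 also under those chosen after seeing the data, which include leaving out a whole series, as far as each gene was still tested (25 of 39 past the stricter filter). No gene was called beyond both neighbours at the junction under any setting. Lower in forestomach than corpus were 16 genes; the count was 10 to 20 with 1 array left out, 9 without series 1 and 8 without series 3. Higher there were 5 genes, and 3 to 5 with 1 array left out, 1 with the mean of all probe sets of a gene or without series 3, and 3 without series 1, without series 2, or without _x_at and _s_at probe sets. Higher in junction than corpus was 1 gene; the count was 0 to 2 with 1 array left out, 0 without series 2 or series 3, 2 with only the 6 arrays compared or with signals raised to the filter level, 3 with median centring or a trended robust fit, and 4 with the replicate block. Lower there were 2, and 1 to 3 with 1 array left out, 1 with the mean of probe sets, median centring, no _x_at or _s_at probe sets, the replicate block, or without series 2 or series 3. Higher in junction than forestomach were 18, and 14 to 23 with 1 array left out. Lower there was 1, and 0 with the mean of probe sets or without series 2. Without _x_at and _s_at probe sets, Rrm2 turned to -0.18 in forestomach against corpus and to 0.55 in junction against forestomach, and Mcm2 turned to 0.35 in junction against corpus and to 0.73 in junction against forestomach, where it was then called higher; the cause was not tested beyond the change of probe set. The replicate block changed no other calls among the 39 genes than those named with each comparison. Median centring shifted the median of all genes by 0.11 in forestomach against corpus and by 0.10 in junction against corpus, with 2110 genes higher and 873 lower in the latter in place of 1800 and 1606. Depth cannot be given for arrays. Genes at or below the filter level, such as Bub1, Tyms, Kif20a, in corpus Bub1b and in forestomach Blm, are limited by their signal over background.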
